A study of Mus musculus with 7 samples.

Results

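The genes described here encode the machinery that moves membrane between the compartments of a cell. They are the Rab GTPases, the sorting nexins (Snx), the syntaxins (Stx) and vesicle-associated membrane proteins (Vamp) of the SNARE family, and the vacuolar protein sorting (Vps) proteins. A gene was included when its symbol begins with 1 of these 5 names followed by a number and when a probe set named that gene alone. This gave 105 genes (193 probe sets) of 8378 measured genes (14229 probe sets), namely 36 Rab, 29 Vps, 22 Snx, 12 Stx and 6 Vamp genes. The rule itself used names, within probe sets that had been kept by detection on every array. The genes were chosen with earlier results of these data known. Another 2 probe sets that name Vps25 together with a second gene were left out.

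Expression was measured on 7 Affymetrix Mouse430_2 arrays of bone marrow cells from mice that had received a marrow transplant. Unsorted marrow came from recipients of cells carrying a mock control transgene (3 arrays) or an ABCG2 transgene (2 arrays). Marrow of an MDS-like recipient of cells carrying EZH2-Mt had been sorted into a GFP-negative and a GFP-positive fraction (1 array each). The labels give no strain, age, time after transplant, vector or promoter, and do not number the mice, so the EZH2-Mt fractions may or may not come from 1 mouse. All groups share the transplant itself. ABCG2 is a membrane pump that exports drugs and porphyrins, and EZH2 is a histone methyltransferase that silences genes.

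Rab proteins switch between a GDP-bound and a GTP-bound form, and each marks its own compartment and recruits tethers there. Sorting nexins and the retromer pull cargo out of endosomes, ESCRT complexes sort cargo into them, and the HOPS and CORVET complexes tether endosomes and lysosomes before SNARE proteins fuse the membranes. In blood cells the same machinery drives phagosome maturation, granule release and the return of receptors to the surface.

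The values are logarithms of signal, taken as base 2, from which the median of each probe set over the 7 arrays had been subtracted. A value of 0 is thus the middle array for that gene, and values of different genes cannot be compared as levels. Only probe sets detected on every array were deposited, so a gene switched off on any array is not among the 105. The values of the manufacturer's hybridisation controls had a median of 2.22 on the GFP-positive array and 0.96 on the GFP-negative array, against -0.33 to 0.07 on the mock and ABCG2 arrays. The poly-A controls also set ABCG2 apart from mock arrays, with medians of -1.09 and -1.57 against -0.03 to 0.01, and stood at 1.77 in GFP-negative and 3.50 in GFP-positive cells. The part of these control differences in the results was not tested. The ABCG2 titles bear a tag absent from the other titles. Should the tag stand for a batch, ABCG2 and batch cannot be told apart.

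The promoters of these genes were examined first, since several of the genes are known targets of TFEB, a transcription factor that binds the CLEAR element and drives lysosome genes. RefSeq promoter windows (assembly GRCm38.p6, from 250 bases before to 50 after the start) matched 81 of the 105 genes by symbol. The palindromic CLEAR sequence of 10 bases, spelled in capitals in the windows shown here, was present in 6 of these 81 (7.41%), against 66 of the 6929 measured genes with a window (0.953%) and 100 of all 27025 genes with one (0.37%). The shorter E-box CACGTG, which lies inside the CLEAR sequence, was found in 14 of 81 (17.3%) against 12.5% of measured genes. The sequence GAGGAA, the core bound by the myeloid factor PU.1, was found on either strand in 25 of 81 (30.9%) against 30.4%, and TTGCNNAA, a form bound by C/EBP factors, in 8 of 81 (9.88%) against 9.86%. A match describes the letters of the window and is no evidence of binding. With 1 window taken per gene, the CLEAR sequence lies wholly before the start in 5 windows. These are shown 5′ to 3′ on the strand of the gene, with the CLEAR sequence in capitals and the rest in lower case. They show how near to the start it stands.
Rab21, chr10:115315592-115315841, minus strand: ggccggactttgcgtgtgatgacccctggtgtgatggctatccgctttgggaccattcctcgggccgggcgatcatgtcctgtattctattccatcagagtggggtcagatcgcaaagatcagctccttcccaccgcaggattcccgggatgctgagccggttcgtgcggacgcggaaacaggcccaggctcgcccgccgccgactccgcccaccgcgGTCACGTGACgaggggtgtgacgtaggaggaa
Rab5a, chr17:53478984-53479233, plus strand: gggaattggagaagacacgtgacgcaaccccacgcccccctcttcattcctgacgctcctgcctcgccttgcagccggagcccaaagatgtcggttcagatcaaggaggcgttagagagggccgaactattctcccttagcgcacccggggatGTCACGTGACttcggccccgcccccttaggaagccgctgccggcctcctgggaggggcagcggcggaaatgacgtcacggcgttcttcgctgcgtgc
Vps16, chr2:130424070-130424319, plus strand: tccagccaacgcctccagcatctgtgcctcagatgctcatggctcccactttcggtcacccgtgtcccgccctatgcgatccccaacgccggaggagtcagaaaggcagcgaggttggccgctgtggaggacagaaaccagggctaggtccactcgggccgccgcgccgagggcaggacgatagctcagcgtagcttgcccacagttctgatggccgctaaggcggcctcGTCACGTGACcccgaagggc
Vps26a, chr10:62486806-62487055, minus strand: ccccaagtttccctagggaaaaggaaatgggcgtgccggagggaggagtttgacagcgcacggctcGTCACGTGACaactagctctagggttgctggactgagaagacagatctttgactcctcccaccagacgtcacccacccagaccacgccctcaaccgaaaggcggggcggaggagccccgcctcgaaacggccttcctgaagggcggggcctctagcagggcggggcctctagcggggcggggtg
Vps33a, chr5:123573016-123573265, minus strand: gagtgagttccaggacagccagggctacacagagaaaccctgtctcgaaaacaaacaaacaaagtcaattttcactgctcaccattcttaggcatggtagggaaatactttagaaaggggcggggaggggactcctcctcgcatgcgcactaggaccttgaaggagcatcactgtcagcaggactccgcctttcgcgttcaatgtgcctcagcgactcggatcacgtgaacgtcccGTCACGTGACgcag
The first base of the element lies 14 bases before the start in Vps33a, 20 in Vps16, 32 in Rab21, 97 in Rab5a and 184 in Vps26a, and in Rab24 the element begins at the start itself. A second Vps26a window, chr10:62486549-62486848, also holds 1 CLEAR sequence, whose place was not examined. These 6 genes did not share a direction in ABCG2 marrow: Rab21, Rab24 and Vps26a fell, Vps33a rose, and Rab5a and Vps16 did not pass the test.

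In unsorted marrow of ABCG2 recipients 48 of the 105 trafficking genes fell against mock marrow and 16 rose, while 41 did not pass the test (limma, Benjamini-Hochberg adjusted p under 0.05 over all 8378 genes, n = 2 against 3 arrays). Over all genes tested 61.8% passed in the same fit, with 26.2% lower and 35.6% higher, against 45.7% and 15.2% of the trafficking genes. Each count by role or list in ABCG2 marrow below is to be read beside these shares of all genes. Their median difference was -0.36 log2 (quartiles -0.90 and 0.17), beside 0.15 for all genes (quartiles -0.52 and 0.73). Falls reached further than rises, with 18 falls and 5 rises of 1 log2 (2-fold) or more, and 9 falls and 1 rise of 2 log2 or more. Of all genes, 14.3% fell and 16.5% rose by 1 log2 or more. No share of all genes was computed at 2 log2, so the counts at 2 log2 only describe these genes. Quantile normalization between arrays gives every array the same spread of values and so narrows the ABCG2 arrays. Their SD over all genes was 1.12 and 1.21, against 0.30 to 0.44 on the other arrays. The part of this narrowing in the smaller differences and lost calls was not tested. Quantile normalization moved the median over all genes from 0.15 to 0.05. With it 33 trafficking genes fell and 3 rose, against 16.6% and 13.2% of all genes. The 3 that still rose were Snx5, Vps39 and Vps50. The same normalization made each of the 10 largest falls smaller. The mice are not numbered in the labels, and each p-value rests on array-to-array spread, which may be technical.

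**Figure D1:**
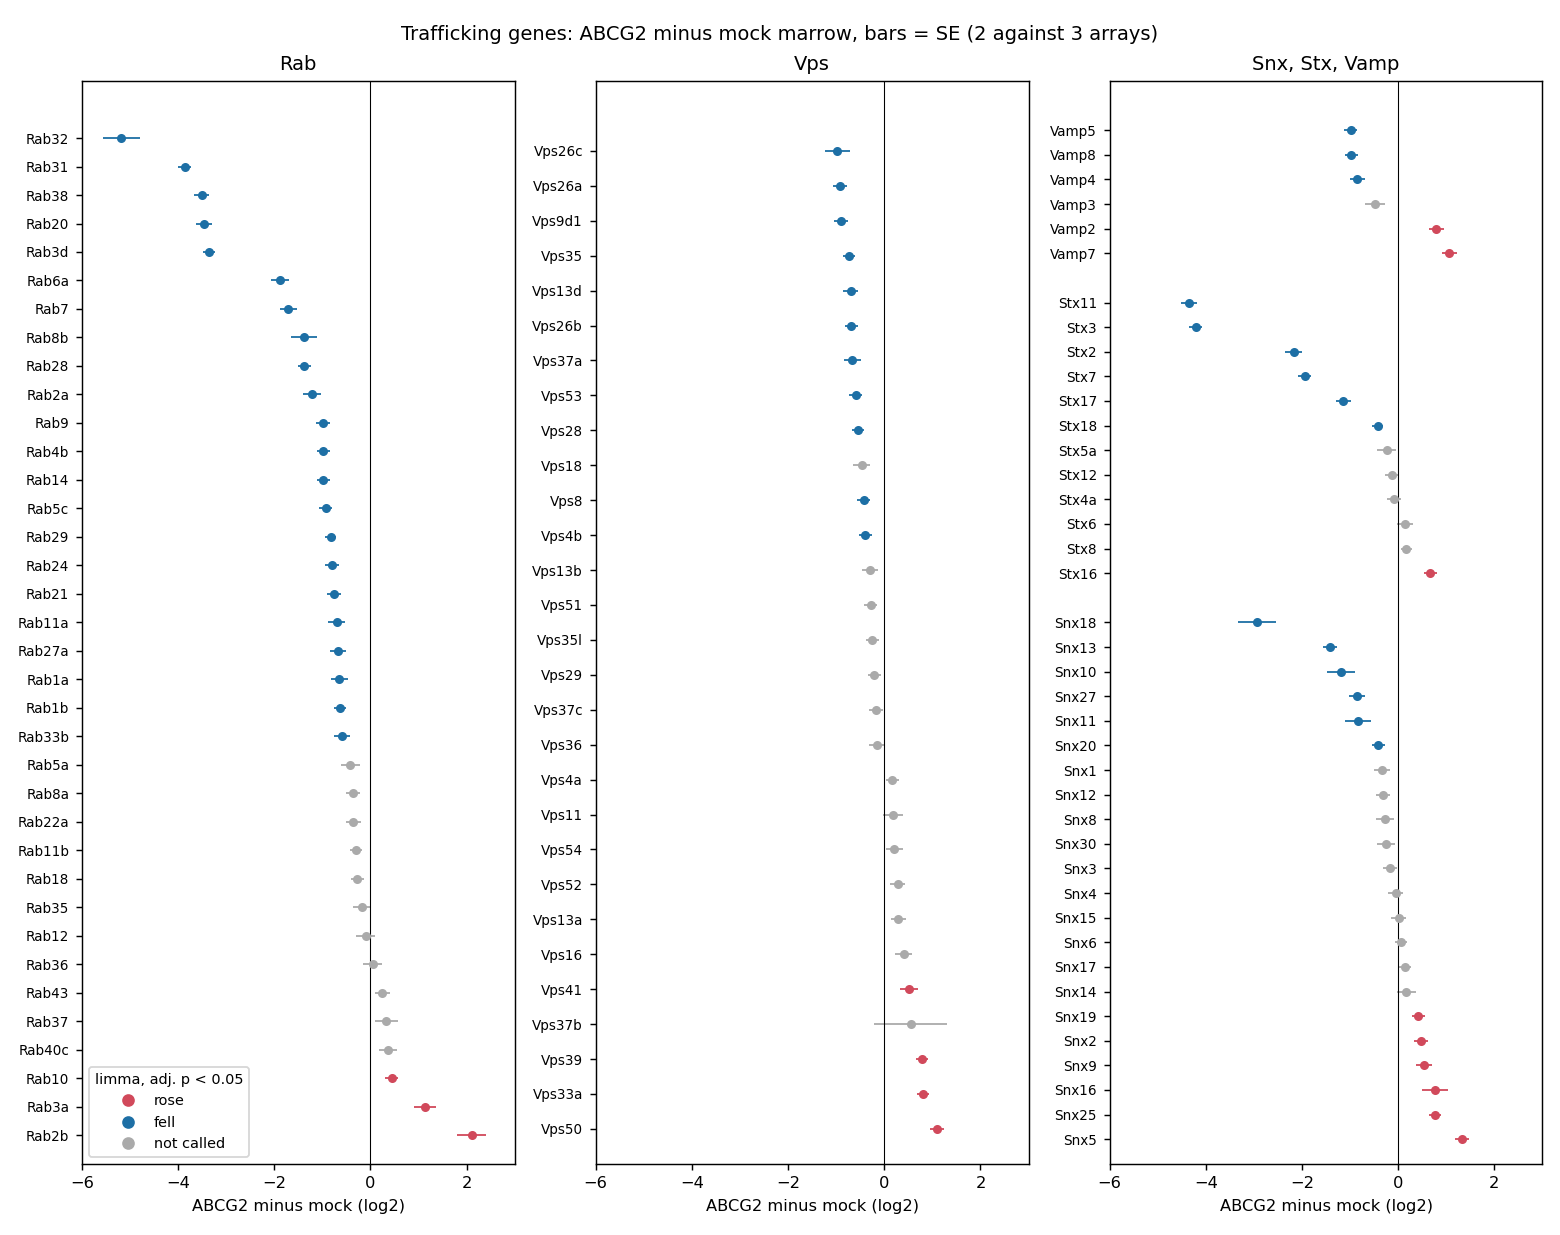
Difference between ABCG2 and mock marrow in log2 for all 105 trafficking genes, ordered by size within each family; points are limma estimates and bars their standard errors (2 against 3 arrays). The 48 genes that fell (blue) reach -5.18 for Rab32, and the 16 that rose (red) reach 2.11 for Rab2b.

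Both ABCG2 arrays lay below all 5 other arrays in 51 trafficking genes and above all of them in 18, beside 27.7% and 34.9% of all genes. Against the mock arrays alone, both lay below in 62 genes and above in 23, beside 32.7% and 44.2% of all genes. These included each of the 48 falls and 16 rises, which were called on the same arrays, so this adds no support. Within mock marrow the genes were steady, with a median range of 0.22 log2 over the 3 arrays and a largest range of 0.86. The median gap between the ABCG2 arrays was 0.21. Any ABCG2 array differed 2-fold or more from any of the other 5 in 23 to 31 trafficking genes (21.9% to 29.5%), beside 30.4% to 36.4% of all genes for the same pairs. Pairs of mock arrays did so in 0 trafficking genes, beside 0.358% to 1.85% of all genes.

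Marrow is a mixture, and markers of several of its cell types also differed between ABCG2 and mock marrow, in either direction. Of 11 measured neutrophil markers 11 fell, with array medians of -6.11 and -4.81 in ABCG2 marrow against -0.31 to 0.01 in mock marrow. Of 8 monocyte and macrophage markers 7 fell (-3.16 and -2.31 against 0.81 to 1.11), as did 3 of 3 megakaryocyte markers (-1.61 and -1.13 against 0.72 to 0.90). Of 4 basophil, mast cell and eosinophil markers 3 fell and 1 rose (-5.87 and -4.09 against -0.999 to 0.27). Of 4 B-lineage markers 2 rose and 0 fell (1.84 and 2.11 against -1.09 to -0.02), of 4 T and NK markers 2 rose and 1 fell (-0.08 and 0.50 against -1.95 to -0.12), and of 2 erythroid markers neither passed (-0.62 and 0.00 against -0.83 to 0.38). In bulk RNA fewer cells of a type and less RNA per cell cannot be told apart, and the part of cell composition in the changes of trafficking genes was not tested.

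The Rab genes listed here under late endosomes and lysosomes fell in 6 of 6 cases, with a median of -1.35. Roles were chosen with earlier results of these data known. A few Rab genes were moved to a separate role after their values were seen. The count of 6 of 6 thus describes this list and is no test of the role. Rab32, which with Rab38 directs cargo to lysosome-related organelles and acts in macrophage defence, stood at 0.60, 0.52 and 0.59 on the mock arrays and at -3.89 and -5.34 on the ABCG2 arrays. The ABCG2 arrays lay far below every other array but 1.45 apart from each other. Rab32 fell by 5.18 ± 0.39 (SE) log2, or 36.4-fold (limma adjusted p = 8.91e-05), the largest change among the trafficking genes, and stood at -3.04 with quantile normalization. Rab38 was tighter, with 0.00, 0.32 and 0.35 in mock and -3.24 and -3.33 in ABCG2 marrow, and fell by 3.51 ± 0.16 (-1.99 with quantile normalization). Rab7, the switch through which late endosomes mature and fuse with lysosomes, ran from 0.20 to 0.28 in mock marrow and stood at -1.21 and -1.70 in ABCG2 marrow, and fell by 1.71 ± 0.17. Rab9, which returns mannose 6-phosphate receptors to the Golgi, fell by 0.98 ± 0.15, Rab29, a partner of the kinase LRRK2, by 0.83 ± 0.12, and Rab24 by 0.80 ± 0.15.

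Among the 4 measured Rab genes of secretory granules 2 fell and 1 rose. Rab3d, found on granules of secretory and myeloid cells, was flat over mock arrays (0.05, 0.03 and -0.01) and over both EZH2-Mt fractions (0.07 and -0.03), and stood at -3.24 and -3.42 in ABCG2 marrow. It fell by 3.35 ± 0.13 (10.2-fold, limma adjusted p = 9.86e-06), and its 2 probe sets gave -3.90 and -2.81. With quantile normalization the difference was -1.63. Rab3a, best known from synaptic vesicles, went the other way, from -0.54 to 0.11 in mock marrow to 0.80 and 1.18, a rise of 1.14 ± 0.24 from 1 probe set with shared sequence (ending in _x_at), whose call was lost with quantile normalization (0.72, adjusted p = 0.202). Rab27a, which docks granules and whose loss causes Griscelli syndrome, fell by 0.68 ± 0.17 (limma adjusted p = 0.0124). Its ABCG2 values of -0.29 and -0.69 overlapped the GFP-positive array at -0.36, and the call was lost without ABCG2 replicate 2 (-0.48, adjusted p = 0.0604) and with the replicate block (-0.65, adjusted p = 0.0577). Rab37 (0.33) did not pass.

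Of 15 Rab genes of early and recycling endosomes 8 fell and 1 rose. Rab31, a relative of Rab5 that acts between the Golgi and endosomes, lay between 0.00 and 0.20 on mock arrays and at -3.79 and -3.71 on ABCG2 arrays, and fell by 3.86 ± 0.13 (14.5-fold, limma adjusted p = 7.52e-06, -1.96 with quantile normalization). Rab20, which takes part in phagosome maturation, stood at 0.74, 0.80 and 1.07 in mock marrow and at -2.45 and -2.74 in ABCG2 marrow, and fell by 3.46 ± 0.17 (-2.61 with quantile normalization). In both genes the ABCG2 arrays lay far below all 5 others, and on the EZH2-Mt arrays Rab31 (-0.02 and 0.18) was close to mock marrow while Rab20 (0.00 and -0.56) was lower. The next falls were smaller, 1.38 ± 0.26 for Rab8b, and 0.98 ± 0.14 for Rab4b and 0.98 ± 0.13 for Rab14, which act in recycling.

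The Rab5 proteins, which define the early endosome, gave 1 call. Rab5c fell by 0.93 ± 0.13, with mock arrays between 0.00 and 0.03 and ABCG2 arrays at -1.03 and -0.81 (-0.60 with quantile normalization). For Rab5a the difference was -0.42 ± 0.20 (limma adjusted p = 0.102), with ABCG2 arrays at -0.02 and -0.56, and it passed without ABCG2 replicate 1 (-0.69, adjusted p = 0.0196). Of the Rab11 proteins, which carry receptors back to the surface, Rab11a fell by 0.70 ± 0.18, a call lost without ABCG2 replicate 2 (-0.46, adjusted p = 0.0647), and Rab11b stood at -0.30 ± 0.13 (adjusted p = 0.0824) and passed with arrays centred on their median (-0.36, adjusted p = 0.0477). Rab21 fell by 0.76 ± 0.14, and Rab8a, Rab22a, Rab35 and Rab12 lay between -0.36 and -0.10 without passing. The 1 rise, of Rab10 by 0.44 ± 0.13, came from 3 probe sets that ranged from -0.16 to 1.09.

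In the secretory pathway from the endoplasmic reticulum through the Golgi 5 of 8 Rab genes fell and 1 rose. Rab6a, of the Golgi, fell by 1.87 ± 0.19, from 0.10 to 0.16 in mock marrow to -1.47 and -2.03. Rab2a, which works between the endoplasmic reticulum and the Golgi, fell by 1.22 ± 0.19, while its close relative Rab2b rose by 2.11 ± 0.30 (4.31-fold, limma adjusted p = 0.00121). Rab2b stood at 0.16, 0.00 and -0.59 on mock arrays and 2.34 and 1.60 on ABCG2 arrays, with the EZH2-Mt fractions at -0.17 and -0.28. It was the largest rise among the trafficking genes, measured by 1 probe set that ends in _x_at, a mark of sequence shared with other transcripts, and with quantile normalization it was 1.30 with an adjusted p of 0.0689. Rab1a (-0.64 ± 0.17) and Rab1b (-0.63 ± 0.12), which start transport out of the endoplasmic reticulum, and Rab33b (-0.59 ± 0.17) fell, and Rab18 (-0.27) and Rab43 (0.25) did not pass. Of the 3 Rab genes with other roles Rab28 fell by 1.37 ± 0.14, and Rab36 (0.04) and Rab40c (0.37) did not pass.

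**Figure D2:**
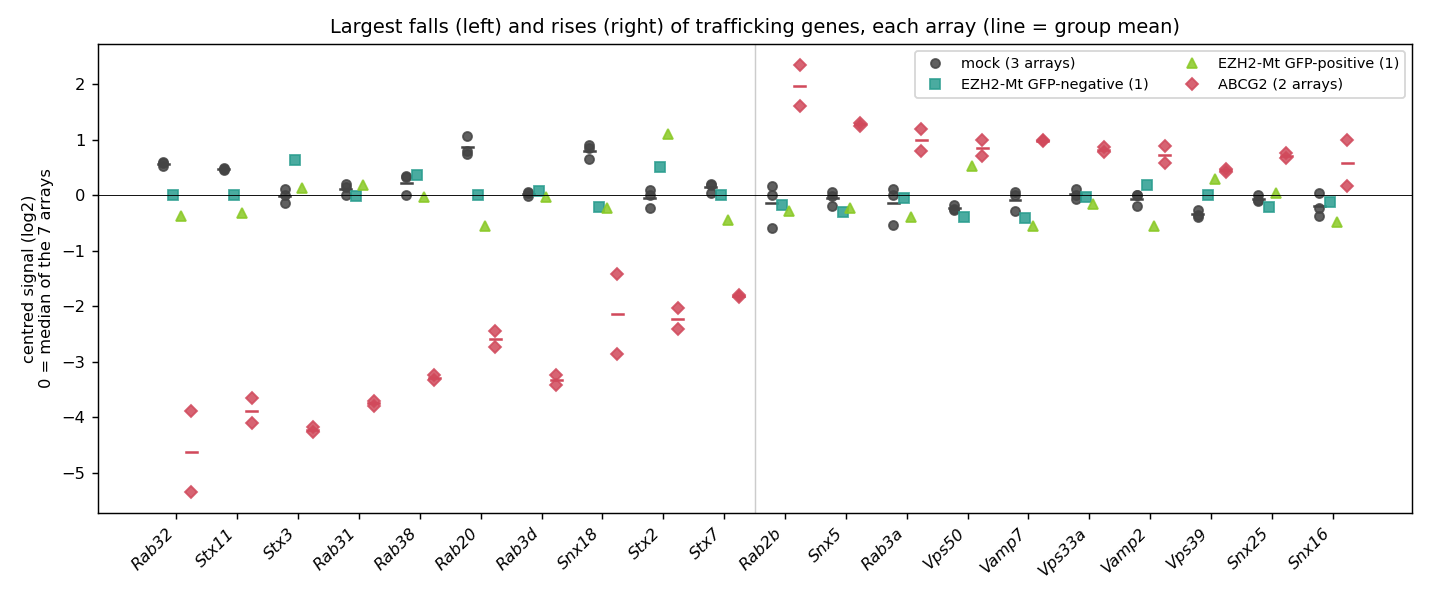
Centred log2 signal on each of the 7 arrays for the 10 trafficking genes that fell most and the 10 that rose most in ABCG2 against mock marrow; 0 is the median of the 7 arrays for that gene and lines are group means. The ABCG2 arrays (red) stand apart from all 5 other arrays in each of the 20 genes, which were chosen by their difference from mock. The spread between the ABCG2 arrays is widest in Rab32 (1.45) and Snx18 (1.44).

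Syntaxins of the plasma membrane held some of the largest falls, 3 of 4 with 0 rises. Stx11, which cytotoxic and phagocytic cells need to release granules and whose loss causes familial hemophagocytic lymphohistiocytosis, was at 0.47, 0.48 and 0.45 on the mock arrays and at -3.66 and -4.11 on the ABCG2 arrays. It fell by 4.35 ± 0.17 (20.4-fold, limma adjusted p = 9.59e-06), with -4.12 and -4.58 from its 2 probe sets (-2.61 with quantile normalization). Stx3, a plasma membrane and granule syntaxin, fell by 4.21 ± 0.14 (18.5-fold, adjusted p = 7.33e-06), from -0.14 to 0.12 in mock marrow to -4.18 and -4.26 (-2.01 with quantile normalization). Stx2 was at -2.04 and -2.41 in ABCG2 marrow and fell by 2.17 ± 0.18 (-1.08 with quantile normalization), while Stx4a, with ABCG2 arrays at -0.17 and 0.11, gave -0.09 ± 0.15 (adjusted p = 0.624). That value does not show that Stx4a was the same in both groups.

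Of 8 syntaxins of endosomes, Golgi and endoplasmic reticulum 3 fell and 1 rose. Stx7, which fuses late endosomes, ran from 0.05 to 0.20 in mock marrow and stood at -1.83 and -1.79 in ABCG2 marrow, and fell by 1.95 ± 0.13 (-1.23 with quantile normalization). Stx17, recruited to autophagosomes before they fuse with lysosomes, fell by 1.14 ± 0.15, and Stx18, of the endoplasmic reticulum, by 0.43 ± 0.12. Stx16, of the trans-Golgi, rose by 0.67 ± 0.13. Stx5a, Stx6, Stx8 and Stx12 lay between -0.24 and 0.17 and did not pass.

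The vesicle SNAREs split, with 3 of 6 lower and 2 higher. Vamp8, which takes part in granule release and in fusion of autophagosomes, fell by 0.98 ± 0.14, from -0.15 to 0.01 in mock marrow to -1.11 and -0.95, and that call was lost with quantile normalization (-0.51, adjusted p = 0.0861). Vamp5 fell by 0.98 ± 0.14 and Vamp4, of the trans-Golgi, by 0.85 ± 0.15. The 3 probe sets of Vamp4 ranged from -1.71 to -0.05. Vamp7, a SNARE of late endosomes and lysosomes, rose by 1.06 ± 0.15, from -0.29 to 0.06 in mock marrow to 0.997 and 0.969. Vamp2, best known as a synaptic vesicle SNARE, rose by 0.80 ± 0.15. Both rises lost their call with quantile normalization (0.60 with an adjusted p of 0.128 for Vamp7, 0.44 with 0.124 for Vamp2). For Vamp3, the SNARE of recycling endosomes, 5 probe sets ranged from -1.59 to 1.65 and their mean of -0.48 ± 0.21 did not pass (limma adjusted p = 0.0868), whereas it passed as the mean without probe sets ending in _s_at or _x_at (-1.22, adjusted p = 0.000967), as the median (-0.76, adjusted p = 0.0229) and without ABCG2 replicate 1 (-0.73, adjusted p = 0.0294).

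Sorting nexins went both ways, with 6 of 22 lower and 6 higher, which is 27.3% each. Over all genes 26.2% fell and 35.6% rose. Among the 9 that carry a membrane-bending BAR domain or work with retromer, Snx18, which acts in endocytosis and autophagy, fell by 2.94 ± 0.39 (7.67-fold, limma adjusted p = 0.000942). It stood at 0.90, 0.85 and 0.64 on mock arrays and at -1.42 and -2.86 on ABCG2 arrays, and its 2 probe sets gave -2.19 and -3.69. Snx5, a partner of Snx1 and Snx2 in carriers that leave the endosome, rose by 1.32 ± 0.14, from -0.20 to 0.05 in mock marrow to 1.24 and 1.31, with 5 probe sets (0.67 with quantile normalization). Snx2 rose by 0.48 ± 0.15, a call lost with quantile normalization (0.10, adjusted p = 0.705), with the replicate block (0.44, adjusted p = 0.114) and without mock replicate 2 or 3 or ABCG2 replicate 2 (0.37 to 0.44, adjusted p from 0.0863 to 0.133). Snx1 (-0.34 ± 0.17, adjusted p = 0.131) and Snx6 (0.07 ± 0.12, adjusted p = 0.652), which join the same carriers, did not pass, though Snx1 passed without ABCG2 replicate 2 (-0.56, adjusted p = 0.0303). Snx9, of clathrin endocytosis, rose by 0.53 ± 0.17 as the mean of -0.08 and 1.15 from its 2 probe sets. Snx4, Snx8 and Snx30 lay between -0.28 and -0.05 without passing.

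Of the other 13 sorting nexins 5 fell and 3 rose. Snx13 fell by 1.42 ± 0.15, and Snx27, the cargo adaptor of retromer, by 0.86 ± 0.17. Snx10, which osteoclasts and macrophages need for acidic compartments, fell by 1.20 ± 0.29, with mock arrays at 0.77, -0.01 and 0.03 and ABCG2 arrays at -0.65 and -1.22. That call was lost with quantile normalization (-0.93, adjusted p = 0.104) and without ABCG2 replicate 2 (-0.91, adjusted p = 0.0604). Snx11 fell by 0.83 ± 0.27. Snx20, which binds the selectin ligand PSGL-1 in leukocytes, fell by 0.41 ± 0.13 (limma adjusted p = 0.0319), but the GFP-positive array at -0.58 lay lower than either ABCG2 array (-0.16 and -0.21), and the call was lost in 6 of 11 alternatives (adjusted p from 0.05 to 0.11). Snx25 (0.77 ± 0.13, or 0.39 with an adjusted p of 0.111 under quantile normalization), Snx16 (0.77 ± 0.26) and Snx19 (0.42 ± 0.14) rose, the call for Snx16 being lost in 6 of 11 alternatives, with ABCG2 arrays at 0.99 and 0.16 and a difference of 0.35 without ABCG2 replicate 1. Snx3, Snx12, Snx14, Snx15 and Snx17 lay between -0.32 and 0.17 and did not pass.

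Retromer and retriever are trimers that lift receptors from endosomes and share the subunit Vps29. Of their 6 measured genes 4 fell and 0 rose. Vps35, the retromer scaffold, fell by 0.74 ± 0.13, from 0.08 to 0.18 in mock marrow to -0.66 and -0.54. Vps26a fell by 0.92 ± 0.14 (-1.44 with quantile normalization) and its relative Vps26b by 0.69 ± 0.14. The ABCG2 values of Vps26a (-0.21 and 0.00) were shared by the EZH2-Mt fractions (-0.04 each), whereas those of Vps26b (-0.84 and -0.56) lay below every other array. Vps26c, of retriever, fell by 0.98 ± 0.26 with ABCG2 arrays at -1.17 and -0.29, and Vps35l (-0.25) and Vps29 (-0.21) did not pass.

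HOPS and CORVET share the core proteins Vps11, Vps16, Vps18 and Vps33a, and differ in the subunits that bind Rab proteins. Of 7 measured genes 3 rose (42.9%) and 1 fell (14.3%), beside 35.6% and 26.2% of all genes. The HOPS subunits Vps39 (0.78 ± 0.13) and Vps41 (0.52 ± 0.19) and the core gene Vps33a (0.81 ± 0.13) rose, and the CORVET subunit Vps8 fell by 0.43 ± 0.13. Vps39 stood at -0.26, -0.36 and -0.40 in mock and at 0.42 and 0.47 in ABCG2 marrow, and its call held in 11 of 11 alternatives. The call of Vps33a was lost with quantile normalization (0.32, adjusted p = 0.227). The Vps41 call (limma adjusted p = 0.0494) was lost in 9 of the alternatives run, with values from 0.25 to 0.58. The core genes Vps11 (0.18), Vps16 (0.40) and Vps18 (-0.47) did not pass.

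The GARP and EARP complexes tether vesicles that return from endosomes, and share Vps51, Vps52 and Vps53. Vps50, the subunit that defines EARP, rose by 1.09 ± 0.14 (limma adjusted p = 0.000898), from -0.27 to -0.18 in mock marrow to 1.001 and 0.713. Vps53 fell by 0.60 ± 0.13, and Vps51 (-0.29), Vps52 (0.28) and the GARP gene Vps54 (0.21) did not pass. Among the ESCRT genes 3 of 7 fell and 0 rose. Vps37a fell by 0.66 ± 0.17, Vps28 by 0.55 ± 0.13 and Vps4b, an ATPase that takes ESCRT filaments apart, by 0.40 ± 0.14. Vps4a (0.17), Vps36 (-0.15) and Vps37c (-0.17) did not pass. Vps37b could not be placed, since its ABCG2 arrays stood at 1.84 and -0.98, a gap of 2.81 that was the widest among the trafficking genes (0.55 ± 0.75, adjusted p = 0.55). Of 4 remaining Vps genes, Vps9d1 (-0.90 ± 0.15) and the lipid carrier gene Vps13d (-0.70 ± 0.15) fell, and Vps13a (0.29) and Vps13b (-0.30) did not pass.

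**Figure D3:**
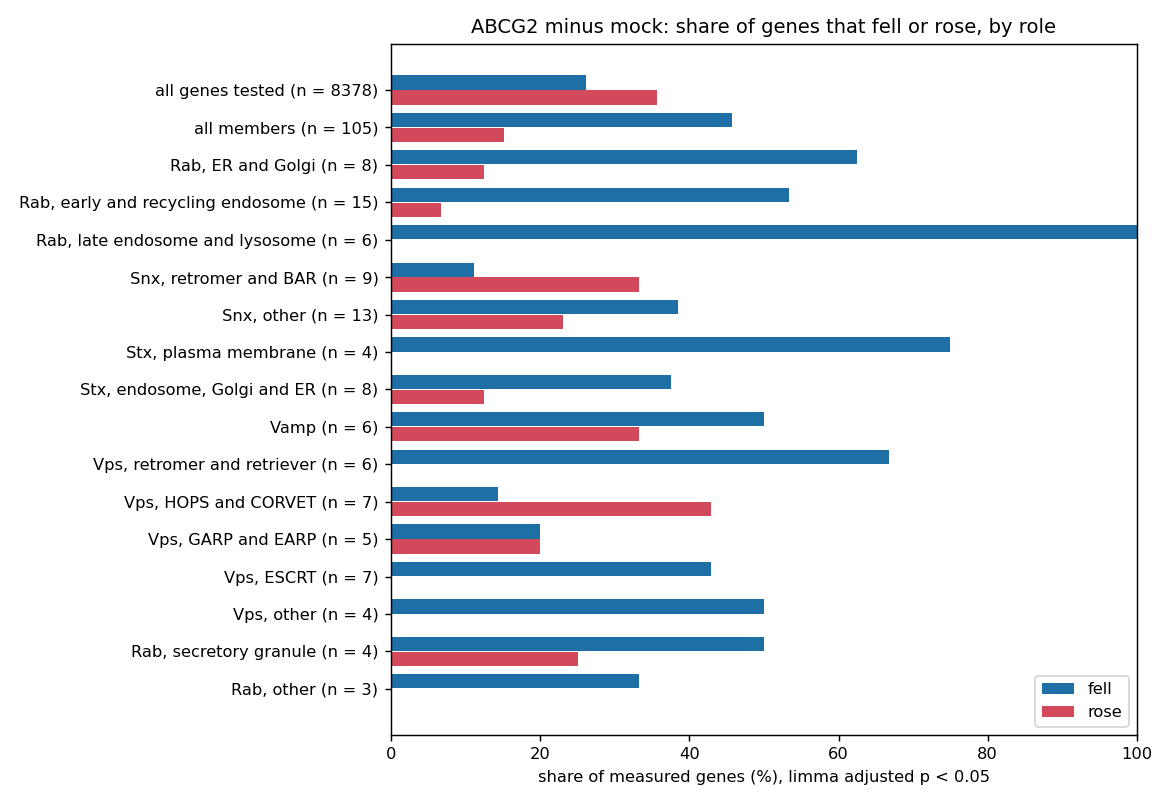
Share of the measured genes in each role that fell (blue) or rose (red) in ABCG2 against mock marrow at a limma adjusted p under 0.05, with all 8378 genes and all 105 trafficking genes at the top; n is the number of genes. The late endosome and lysosome Rab genes fell in 6 of 6 cases, beside 26.2% of all genes. HOPS and CORVET genes rose in 3 of 7 cases (42.9%), beside 35.6% of all genes. A few Rab genes were moved to a separate role after their values were seen.

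Genes that share a name and number encode closely related proteins, and some of them moved in opposite directions in ABCG2 marrow. Rab2a fell and Rab2b rose, and Rab3d fell and Rab3a rose, each by 1 log2 or more. Rab2b and Rab3a each rest on 1 probe set ending in _x_at. Both lost their call with quantile normalization (limma adjusted p = 0.0689 and 0.202). Rab1a and Rab1b fell alike, by 0.64 and 0.63. In the Rab5, Rab8, Rab11 and Vps4 pairs 1 member passed and the other did not (Rab8b -1.38 and Rab8a -0.36, Vps4b -0.40 and Vps4a 0.17), and the difference between the members was not tested. Probe sets of such relatives can share target sequence. Of the 56 trafficking genes with more than 1 probe set, 12 had probe sets of both signs, and of these Rab10 and Snx9 were the 2 that passed the test.

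**Figure D4:**
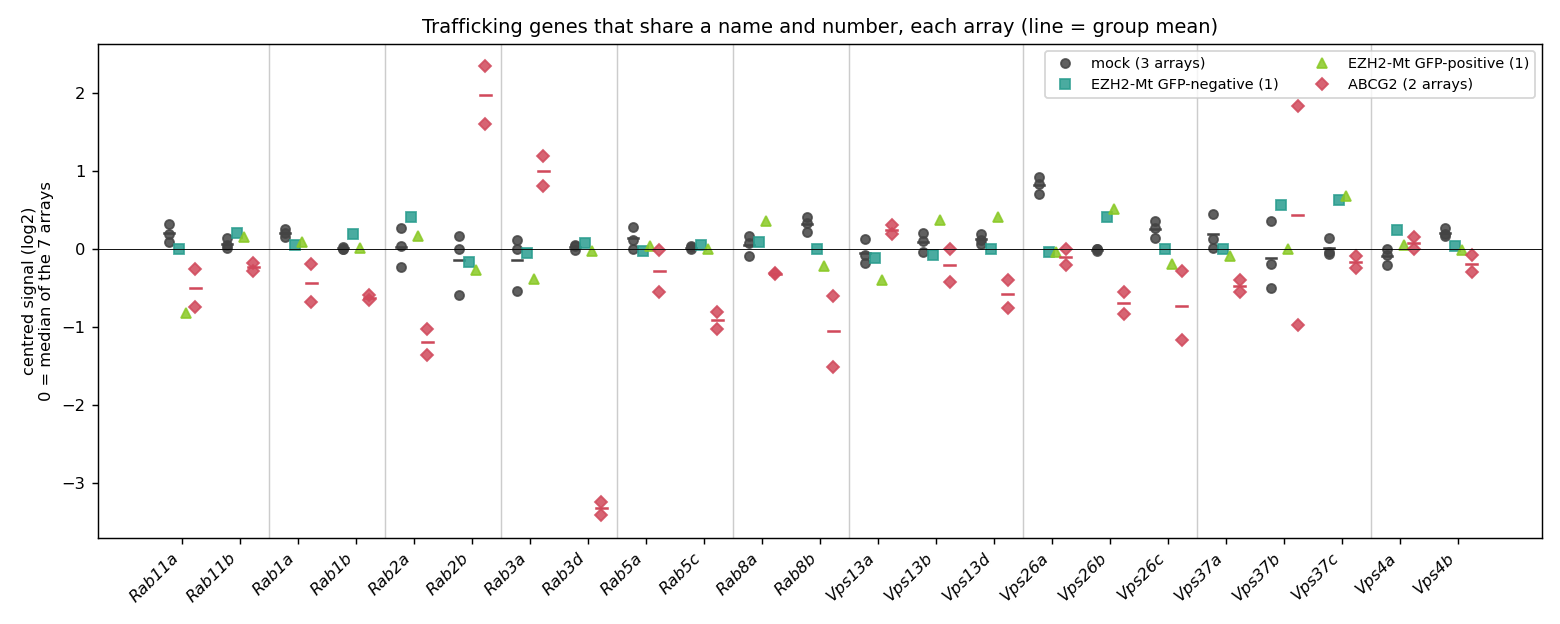
Centred log2 signal on each array for trafficking genes with the same name and number but different letters, separated by grey lines; 0 is the median of the 7 arrays for that gene and lines are group means. In ABCG2 marrow Rab2a lies at -1.03 and -1.36 and Rab2b at 2.34 and 1.60. Rab3d lies at -3.24 and -3.42 and Rab3a at 0.80 and 1.18. Rab2b and Rab3a each rest on 1 probe set ending in _x_at.

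Genes that work with this machinery were followed as lists. Of 131 measured partner genes 55 fell and 23 rose in ABCG2 marrow, or 42.0% and 17.6%, with a median of -0.25. Over all genes 26.2% fell and 35.6% rose, with a median of 0.15. By list, 27 of 63 Rab regulators and effectors fell and 17 rose, 10 of 24 SNAREs and SNARE regulators fell and 2 rose, 8 of 22 ESCRT genes fell and 1 rose, 4 of 8 exocyst genes fell and 1 rose, and 6 of 15 genes of retromer, WASH and their cargo fell and 3 rose. The largest falls were those of the Rab GTPase-activating gene Tbc1d8 (-3.99 ± 0.12), of Lrrk2, the kinase that phosphorylates Rab proteins (-3.72 ± 0.23), and of Rab11fip5, a Rab11 effector (-3.04 ± 0.20). The largest rises were those of Snap47 (2.05 ± 0.13), Rilpl1 (1.94 ± 0.24) and Tbc1d4 (1.54 ± 0.19). Stxbp2, which binds Stx11 and was picked out after its value was seen, fell by 1.62 ± 0.16, from -0.02 to 0.26 in mock marrow to -1.39 and -1.69.

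With both EZH2-Mt fractions as 1 group, 7 trafficking genes fell and 3 rose against mock marrow (limma adjusted p under 0.05, n = 2 against 3 arrays), beside 4.18% and 5.28% of all genes, and 29 had an unadjusted p under 0.05, beside 29.9% of all genes. The genes that fell were Rab20 (-1.15 ± 0.21), Snx18 (-1.02 ± 0.15), Vamp4 (-0.99 ± 0.16), Vps26a (-0.86 ± 0.14), Rab32 (-0.75 ± 0.16), Rab9 (-0.65 ± 0.16) and Stx11 (-0.63 ± 0.16). Those that rose were Vps16 of the HOPS and CORVET core (0.74 ± 0.17), Vps41 of HOPS (0.69 ± 0.16) and the ESCRT gene Vps37c (0.64 ± 0.14), which were lost with quantile normalization. The fractions were sorted and mock marrow was not, so the transgene and the sort cannot be told apart, and the spread of the EZH2-Mt group includes the difference between its fractions. The calls depended on single arrays. Trafficking genes showed 0 rises and 2 falls without mock replicate 1 (1.55% and 1.74% of all genes), and 0 and 0 without mock replicate 2 (0.979% and 0.931%). There were 0 and 2 without mock replicate 3 (0.525% and 0.812%). In these fits without a mock array 20 to 23 trafficking genes had an unadjusted limma p under 0.05. No share of all genes is given for those counts, so they only describe these genes. Leaving out a fraction left 1 EZH2-Mt array. The median difference of the trafficking genes was then -0.06 without the GFP-positive array, beside 0.04 for all genes. Without the GFP-negative array it was -0.03, beside 0.06.

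Values on both fractions lay outside the mock range in 56 trafficking genes, with 33 below and 23 above, beside 20.6% and 27.4% of all genes. Rab20 stood at 0.00 in GFP-negative and -0.56 in GFP-positive cells, under mock values of 0.74 to 1.07 and well above the ABCG2 arrays. Vamp4 was alike in fractions and ABCG2 marrow, at -0.49 and -0.35 against -0.30 and -0.26, with mock arrays at 0.37 to 0.71. Stx3 was at 0.64 and 0.13 and Stx2 at 0.50 and 1.10, both above every mock array, in contrast to ABCG2 marrow, and neither passed (limma adjusted p = 0.214 and 0.0502). Both comparisons share the mock arrays. Of the monocyte and macrophage markers 7 of 8 fell in the fractions as well, with array medians of -0.20 and 0.00, while 0 of 11 neutrophil markers passed (0.32 and 1.15). Of the other markers 2 of 3 megakaryocyte markers fell (median difference -1.07), and 1 of 2 erythroid (1.96), 1 of 4 T and NK (1.42) and 1 of 4 basophil, mast cell and eosinophil markers (0.66) rose, with 0 of 4 B-lineage markers passing (0.96). The part of these markers in the result was not tested.

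**Figure D5:**
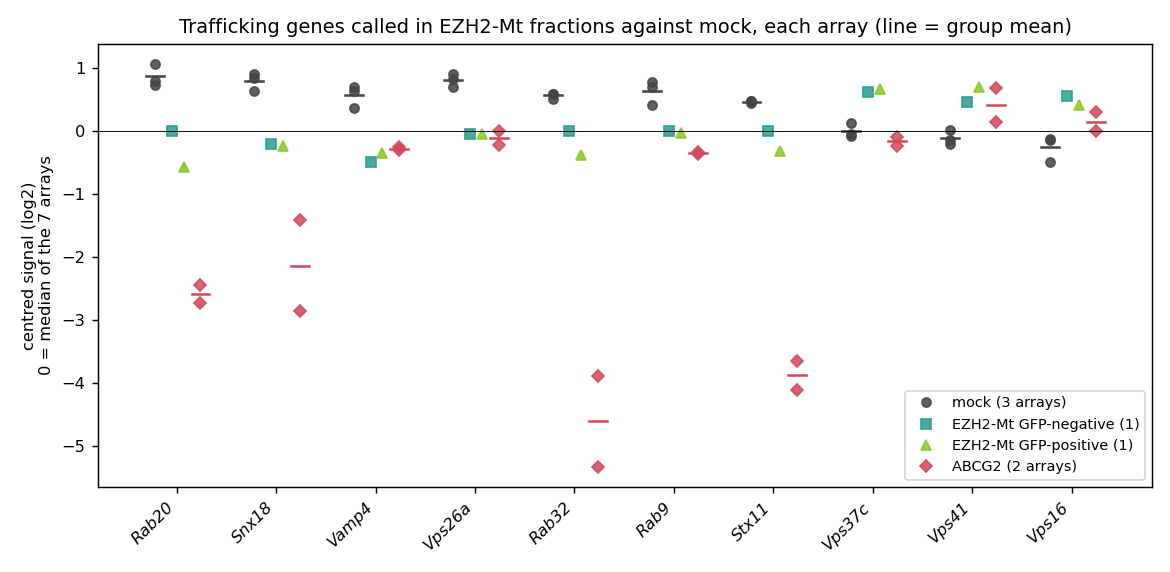
Centred log2 signal on each array for the 10 trafficking genes that passed limma's test between the EZH2-Mt fractions and mock marrow, ordered by their difference; 0 is the median of the 7 arrays for that gene and lines are group means. In the 7 genes on the left both fractions lie below the 3 mock arrays, and in the 3 genes on the right both lie above them. The genes were chosen by the test on these same arrays.

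Between the GFP-positive and GFP-negative fractions 0 of 105 trafficking genes differed 2-fold or more in either direction, against 1.77% of all genes higher and 1.34% lower in GFP-positive cells. There is 1 array of each, so the difference has no replicate check and no test. The differences ran from -0.83 to 0.93, with a median of -0.07. The largest were those of Vps50 (-0.40 in GFP-negative and 0.53 in GFP-positive cells), Rab33b (0.00 and -0.83), Rab11a (0.00 and -0.83) and Vamp2 (0.18 and -0.55). Cell type markers differed between the fractions as well: 3 of 11 neutrophil, 3 of 4 B-lineage and 2 of 2 erythroid markers were 2-fold or more higher in GFP-positive cells, and 3 of 4 T and NK and 1 of 4 basophil, mast cell and eosinophil markers were lower. Their part in the differences was not tested. For comparison, 3 trafficking genes (2.86%) differed 2-fold between the ABCG2 arrays, beside 4.34% of all genes. With quantile normalization 1 gene was higher 2-fold or more in GFP-positive cells and 3 were lower. No share of all genes is given for those counts, so they only describe these genes.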

How the data were processed

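The deposited values are on a log2 scale (the base is taken as 2, since none is stated). Per the file headers they are normalized Mouse430_2 signals of probe sets kept by the authors at a raw signal from 3 to 120534.25 with a Present or Marginal flag in 100% of samples, and the submitters' processing notes list MAS5. Scaling between arrays was not given in the sources used here. Every probe set had a median of 0 over the 7 arrays. The value table and the per-array files held the same values.

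Probe sets were named from the platform annotation, and 54 control, 483 several-gene and 1543 unnamed probe sets were left out. A gene's value was the mean of its probe sets, with no further filter. Groups were compared with limma 3.58.1 in R 4.3.3 (lmFit, eBayes, two-sided, Benjamini-Hochberg over 8378 genes, threshold 0.05), checked on simulated data. The ABCG2 fit held the mock and ABCG2 arrays, and the EZH2-Mt fit the mock arrays and both fractions. Values after ± are limma standard errors. The number of arrays limits the precision.

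Described in full were the 10 largest rises and falls among called genes in ABCG2 marrow, the 5 largest each way in the EZH2-Mt fractions and 28 genes chosen by role, of which Rab5b and Rab44 are not among the genes measured here; other genes are named inside their role, and of partner genes the 3 largest each way. The genes, roles and lists were chosen with earlier results of these data known, and a few Rab genes were moved to a separate role after their values were seen. Alternatives were quantile normalization, centring of arrays on their median, the median of probe sets, leaving out probe sets ending in _s_at or _x_at, array weights, the replicate number as a block, and leaving out each array.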

Additional observations from a re-analysis of the deposited data

How the results depend on the processing

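Of 448 values computed for 41 named genes under these alternatives, 403 kept their direction and their side of the threshold in the ABCG2 comparison, 38 lost the call, 6 gained it and 1 changed sign (Stx4a, which ranged from -0.23 to 0.052 with 1 array left out and was above 0 without ABCG2 replicate 1). The 10 largest falls passed in all 11 alternatives, but quantile normalization made each smaller, with Rab32 at -3.04 and Stx2 at -1.08. Trafficking genes that rose numbered 3 with quantile normalization and 10 to 14 with 1 array left out, and falls 42 to 45. The median difference of the trafficking genes was -0.40 with quantile normalization, -0.42 with centred arrays, -0.41 without probe sets ending in _s_at or _x_at, -0.39 with array weights, and -0.40 to -0.33 with 1 array left out. With the replicate block 11 genes rose and 43 fell, beside 30.7% and 23.7% of all genes, and the median was -0.35. The difference between arrays numbered 1 and 2 correlated at r = 0.01 across genes between the groups, so the numbers are not taken to pair mice. In the EZH2-Mt fractions quantile normalization gave 0 rises, array weights 0 rises and 4 falls, and leaving out 1 array 0 to 3 rises and 0 to 9 falls, with 20 to 35 genes at an unadjusted limma p under 0.05. Between the GFP fractions quantile normalization gave 1 gene higher and 3 lower, with no share of all genes given beside them. Quantile normalization gives every array the same spread of values. Before it the SD over all genes was 1.12 and 1.21 on the ABCG2 arrays, against 0.30 to 0.44 on the other arrays. The part of this method in the smaller ABCG2 differences was not tested. The cause of the other shifts was not tested. A gene not detected on some array is not measured here.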
